A study of Mus musculus with 6 samples.

Results

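The genes of the mitochondrial respiratory chain and of ATP synthase were examined in ovaries of mouse embryos at E15.5 (days after conception), with 3 arrays of a Dmrt1 knockout and 3 arrays of wild type. Members were all genes whose symbol in the platform annotation begins with Nduf followed by a subunit letter (a, b, c, s or v) and a number, with Uqcr, with Cox and a digit from 4 to 8, or with Atp5, and the genes Sdha to Sdhd. This gave 81 of the 18193 genes named by probe sets with a single symbol, through 164 of 45037 probe sets. Each gene was read through its brightest probe set, the one with the highest mean log2 intensity over the 6 arrays. By complex there were 35 genes for complex I, 4 for complex II, 8 for complex III, 17 for complex IV and 17 for complex V.

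The study asked what a conditional removal of Dmrt1, a DM domain transcription factor of germ cells and gonads, changes in the fetal ovary. The knockout arrays carry the genotype label dmrt1 knockout, and the wild-type arrays the label WT. Both groups are whole ovaries of the same age, placed in an RNA stabiliser before extraction of total RNA. The strain, the Cre driver, the number of ovaries or animals per array and the litters are not given in the sources used here, and nothing says that the arrays of a group come from separate animals. All p-values here therefore reflect how far these 6 arrays scatter, and part of that scatter may be technical.

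The respiratory chain moves electrons from NADH (complex I) and succinate (complex II) through ubiquinone to complex III, and from there through cytochrome c to complex IV, which reduces oxygen. Complexes I, III and IV pump protons across the inner mitochondrial membrane, and complex V, the ATP synthase, uses the gradient to make ATP. Most subunits are encoded in the nucleus and belong to every respiring cell, but several subunits of complex IV have extra genes used mainly in heart and skeletal muscle, in testis or in a few other tissues. Fetal germ cells multiply their mitochondria as they grow toward oocytes.

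Pairs of arrays of the same genotype had correlations of 0.985 to 0.993, and pairs across genotypes 0.973 to 0.980. The median linear intensity of an array over all probe sets was lower in knockout (13.1 to 13.4) than in wild type (14.4 to 14.7). On the log2 scale the difference of medians was -0.14, but only -0.01 over the tested probe sets. The Dmrt1 probe set lay at log2 2.58 to 3.10 in knockout, against 3.08 to 3.70 in wild type, under the filter level of log2 4, and gave no check of the genotype labels. Xist, the RNA of the inactive X chromosome, was at log2 1.81 on knockout replicate 1 as a mean of its 3 probe sets, while the other knockout arrays had 9.85 and 9.75 and the wild-type arrays 10.68 to 10.91, so the leading values are also given without knockout replicate 1. Of the germ cell markers 11 of 12 passed the filter on low values and of the pregranulosa markers 10 of 10, so both main cell types of a fetal ovary gave signal.

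One respiratory chain gene, Cox7a1, rose in the knockout ovaries, and 0 fell. Of the 81 genes 78 were tested, having a log2 intensity of at least 4 on at least 3 of the 6 arrays, and 77 did not pass. The share of members that rose was 1.28%, and over all 11897 tested genes 1.28% rose and 2.27% fell, 3.55% together (limma, Benjamini-Hochberg adjusted p under 0.05). An unadjusted p under 0.05 was reached by 5 members (6.41%), and by 17.4% of all tested genes. In whole ovaries, fewer cells of a type and less RNA per cell cannot be told apart. Of the 22040 tested probe sets 321 rose and 1134 fell (6.6% together), or 874 and 829 when each array was centred on its median.

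For most of these genes the arrays were precise enough to bound a change. The 95% interval of the difference lay within 1.5-fold in both directions for 70 of 78 tested members (89.7%), and for 58.3% of all tested genes. The members were also brighter, with mean log2 levels of 11.47 to 11.66 per array, against 8.47 to 8.51 for all tested genes. In complex IV, with the lowest mean levels of the complexes (9.94 to 10.28), the share within 1.5-fold was 66.7%. The part of signal level in these shares was not tested. The median difference, knockout minus wild type, was 0.08 log2 units over the members and 0.02 over all tested genes. Differences were positive for 63 members and negative for 15, so 80.8% were positive, against 53.4% of all tested genes. That share depended on the processing: it was 97.4% after median centring, which raised the median of all genes to 0.16, 59.3% (35 of 59 genes) after removing probe sets able to match several transcripts, 71.8% without knockout replicate 1, 69.2% without knockout replicate 3 and 89.7% without knockout replicate 2. The members share arrays and vary together, so the share is a description of these arrays.

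**Figure D1:**
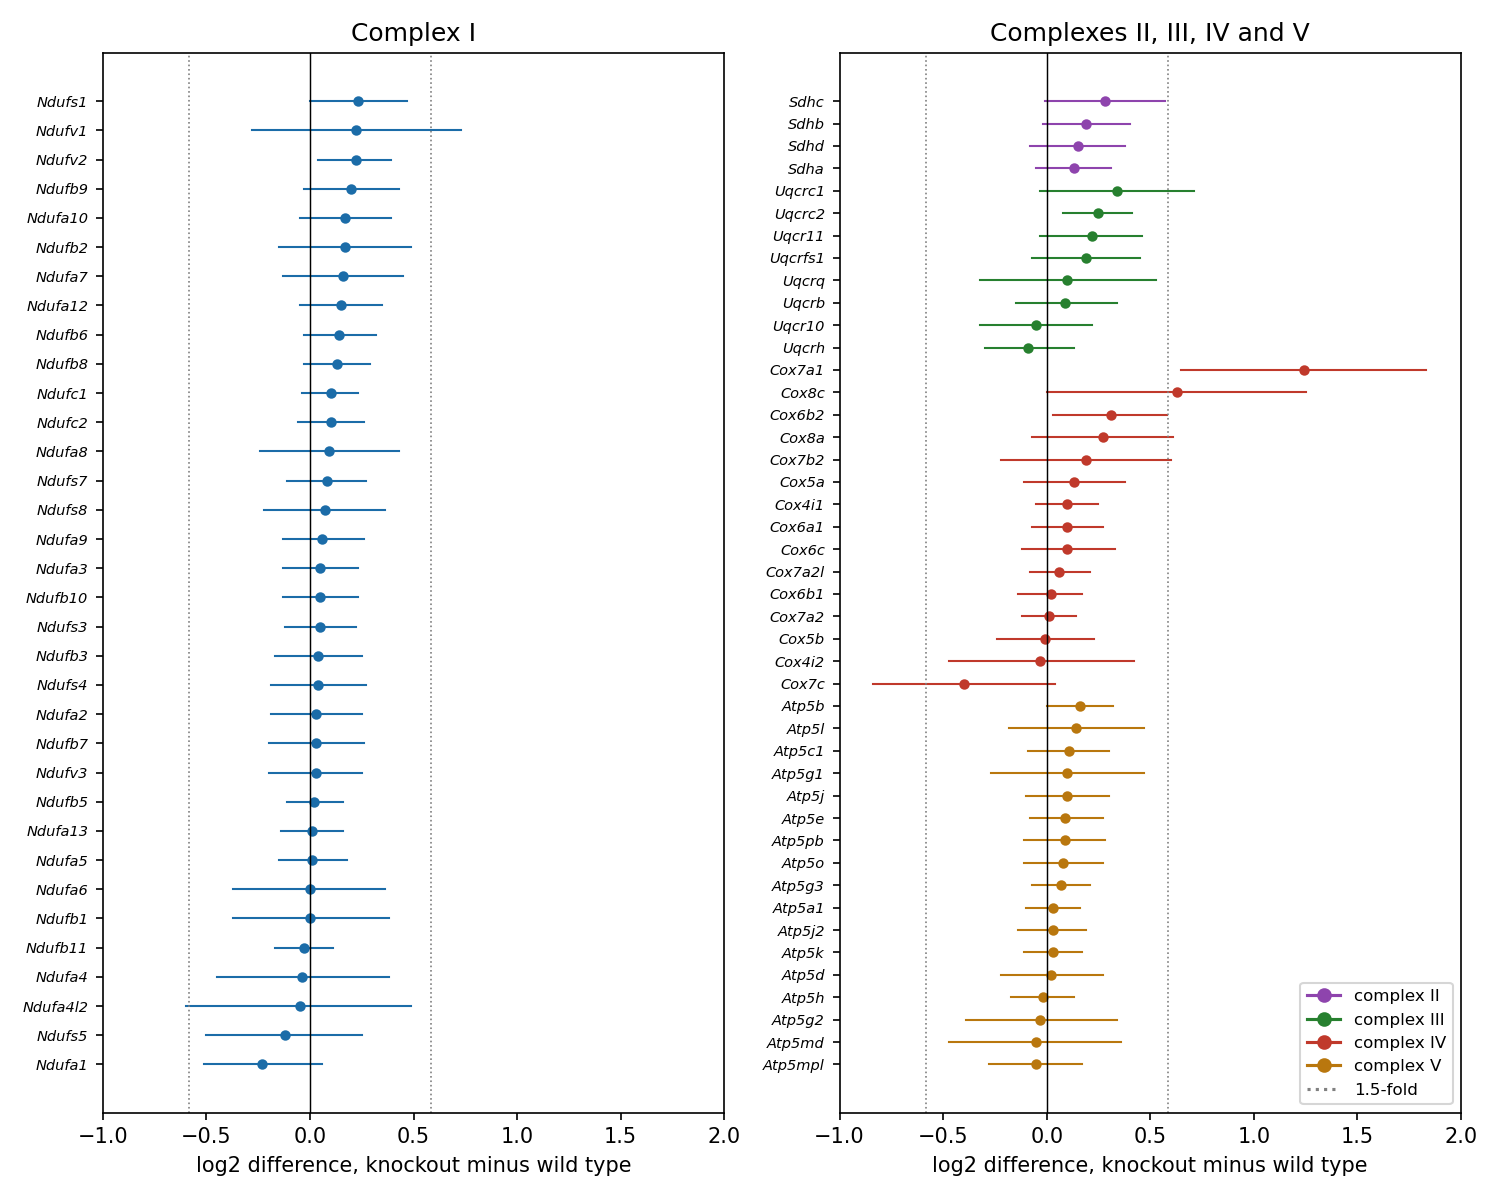
Log2 difference, knockout minus wild type (x axis), of the 78 tested genes, with complex I on the left and complexes II to V on the right. Points are differences, bars their 95% limma intervals (3 arrays per group), and dotted lines mark 1.5-fold. The interval of Cox7a1, 0.65 to 1.83, lies wholly beyond the upper dotted line.

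**Figure D2:**
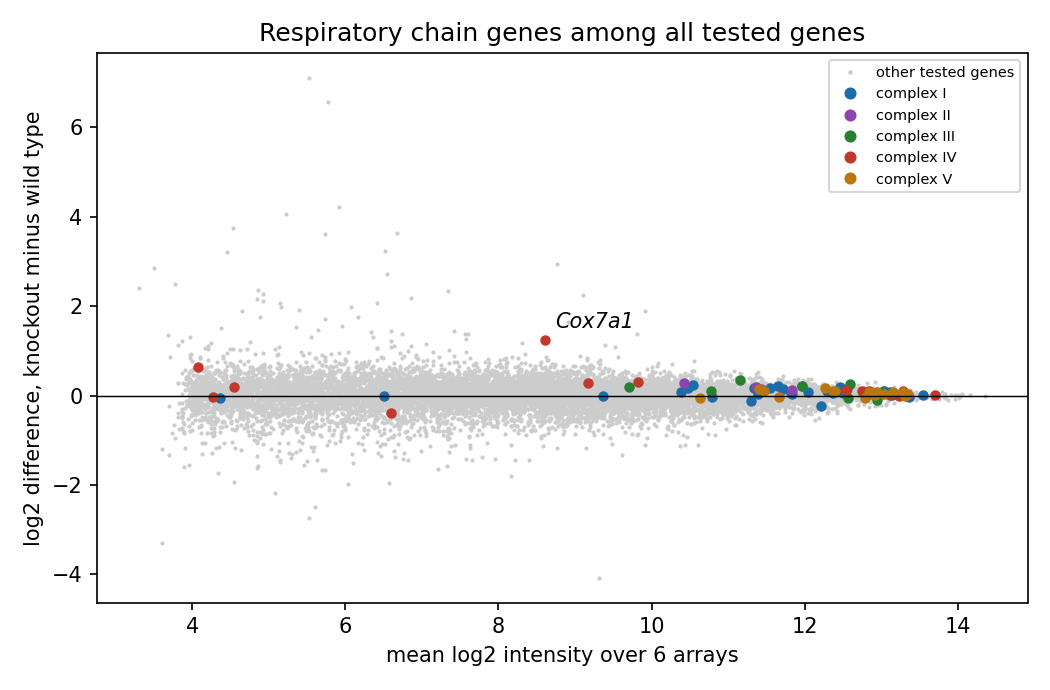
Log2 difference, knockout minus wild type (y axis), against mean log2 intensity over the 6 arrays (x axis) for all 11897 tested genes, with the respiratory chain genes coloured by complex. The tested members range from -0.40 to 1.24 on the y axis, and Cox7a1 is the highest of them.

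Cox7a1 encodes the heart and skeletal muscle form of subunit VIIa of cytochrome c oxidase. Its single probe set gave intensities of 967, 466 and 483 on the knockout arrays, and of 214, 289 and 267 on the wild-type arrays. All 3 knockout arrays were above all 3 wild-type arrays, and knockout replicate 1 was the highest. On the log2 scale the means were 9.23 ± 0.59 in knockout and 7.99 ± 0.22 in wild type (SD, n = 3 each). The gene rose 2.36-fold, a log2 difference of 1.24 ± 0.26 (SE, limma adjusted p = 0.0202). Without knockout replicate 1 the difference was 0.90 and still passed (limma adjusted p = 0.022). The call ended without wild-type replicate 1 (difference 1.11, limma adjusted p = 0.0933) and without wild-type replicate 3 (1.27, 0.0502).

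The ubiquitous partner genes of Cox7a1 did not pass. Cox7a2, the form of subunit VIIa found in most tissues, read log2 13.71, 13.65 and 13.74 in knockout and 13.64, 13.73 and 13.70 in wild type. Its groups overlapped, and the difference was 0.01 with a 95% interval of -0.12 to 0.14. Cox7a2l, a related protein that helps join complex III to complex IV, differed by 0.06 ± 0.06 (SE, limma adjusted p = 0.643). The interval of Cox7a1, 0.65 to 1.83, lay wholly above those of Cox7a2 and Cox7a2l (-0.08 to 0.21). These genes were read at unlike levels, with mean log2 intensities of 8.61 for Cox7a1, 13.70 for Cox7a2 and 12.78 for Cox7a2l. The part of signal level in the contrast was not tested.

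The promoters of Cox7a1 and Cox7a2 are shown because the same subunit is encoded by a gene that rose and by a gene whose interval stayed within 0.14 log2 units of 0. Each window runs from 250 bases before to 50 bases after the start of the gene, is taken from RefSeq on build GRCm38.p6, and is written in the direction of the gene with CpG dinucleotides in capitals. The Cox7a1 window, chr7:30183921-30184220 on the plus strand, has 7 CpG, and the Cox7a2 window, chr9:79759804-79760103 on the minus strand, has 20.
Cox7a1: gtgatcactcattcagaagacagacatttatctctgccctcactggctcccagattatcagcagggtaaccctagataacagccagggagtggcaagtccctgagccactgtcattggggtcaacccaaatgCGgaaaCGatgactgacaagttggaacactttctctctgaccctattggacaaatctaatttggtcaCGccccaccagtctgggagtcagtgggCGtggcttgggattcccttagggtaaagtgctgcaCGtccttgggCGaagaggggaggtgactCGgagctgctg
Cox7a2: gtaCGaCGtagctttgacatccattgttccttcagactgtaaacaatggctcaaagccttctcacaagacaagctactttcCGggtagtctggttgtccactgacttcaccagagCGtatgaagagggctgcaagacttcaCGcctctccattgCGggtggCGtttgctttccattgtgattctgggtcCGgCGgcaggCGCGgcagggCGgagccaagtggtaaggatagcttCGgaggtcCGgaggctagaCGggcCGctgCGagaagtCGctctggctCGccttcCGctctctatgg

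Promoter windows were matched for 66 of the 81 genes, with 71 windows in all. They held 2 to 43 CpG with a median of 19, against a median of 7 over 32851 promoters of the genome. Cox7a1 had the lowest number but 1, after Cox8b with 2. Of the 5 windows with the fewest CpG, 4 belonged to isoform genes of complex IV with restricted expression, Cox8b, Cox7a1, Cox6b2 and Cox7b2, and the remaining one to Ndufc2 with 8. Of the 8 isoform genes with restricted expression among the members, Ndufa4l2 of the complex I symbols included, these 4 were the only ones with a window.

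**Figure D3:**
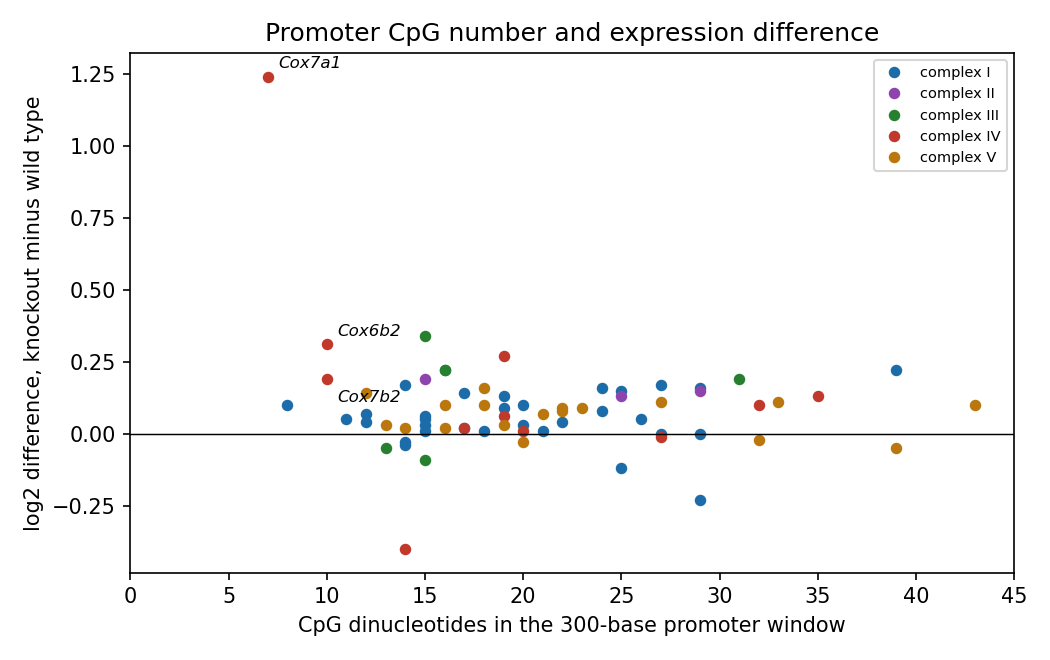
Log2 difference, knockout minus wild type (y axis), against the number of CpG dinucleotides in the 300-base promoter window (x axis) for the 69 windows of tested genes, coloured by complex. Cox7a1, with 7 CpG, is at the low end of the x axis and the high end of the y axis. The other plotted windows with at most 10 CpG are those of Ndufc2 (8 CpG, difference 0.10), Cox6b2 (10, 0.31) and Cox7b2 (10, 0.19). Windows with more than 10 CpG belong to genes with differences of -0.40 to 0.34, a range that also holds Ndufc2, Cox6b2 and Cox7b2. A relation between CpG number and difference was not tested.

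Windows were also searched on both strands for motifs of factors known to act on respiratory genes. The NRF1 motif, whose letters are the capitals in the Uqcrc1 window printed here with any base at the fifth position on one strand or the sixth on the other, was found in 16 of 71 windows (22.5%) and in 4.6% of all promoters, the GABP motif CCGGAAGT in 7.04% and 3.89%, the YY1 motif AAGATGGCG in 8.45% and 1.4%, and the ERR motif TCAAGGTCA in 2.82% and 0.423%. The letters ACATTGT, the core of the DMRT motif, were found in 4 windows (5.63%, against 2.96% of all promoters), those of Ndufc2, Uqcr10, Ndufb5 and Cox5a. None of these motifs was found in the windows of Cox7a1 or Cox7a2. The NRF1, GABP and YY1 motifs contain CpG, and the member windows hold more CpG than all promoters (median 19 against 7). The part of base composition in these shares was not tested. The window of Uqcrc1, a core protein of complex III with the largest positive difference in that complex, is given as an example with 2 NRF1 matches, written in capitals (chr9:108936398-108936697, plus strand, GRCm38.p6).
Uqcrc1: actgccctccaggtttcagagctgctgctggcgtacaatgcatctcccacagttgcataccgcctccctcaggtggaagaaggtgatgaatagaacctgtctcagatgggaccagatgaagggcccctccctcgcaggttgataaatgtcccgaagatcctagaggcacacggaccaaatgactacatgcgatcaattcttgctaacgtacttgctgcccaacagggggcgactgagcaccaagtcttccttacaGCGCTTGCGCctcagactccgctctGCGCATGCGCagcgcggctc

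The other tissue-restricted genes of complex IV were low or showed no call. Cox6a2 and Cox8b, the other heart and skeletal muscle forms, were under the filter level on all 6 arrays. Cox6a2 read log2 3.40, 3.37 and 3.67 in knockout and 3.26, 3.40 and 3.43 in wild type, and Cox8b read 3.10, 3.12 and 2.96 in knockout and 2.86, 3.09 and 2.72 in wild type. Cox6b2, a form best known from testis, read 10.10, 9.87 and 9.96 in knockout and 9.55, 9.73 and 9.73 in wild type. All its knockout arrays were above the wild-type arrays, and the difference of 0.31 ± 0.12 (SE) did not pass (limma adjusted p = 0.188). Cox8c, another testis form, reached the filter level on only 3 arrays, at 4.33, 3.83 and 4.99 in knockout and 3.60, 4.03 and 3.64 in wild type. Its groups overlapped, and the difference of 0.63 ± 0.28 (SE) did not pass (limma adjusted p = 0.239). Cox7b2, also a testis form, differed by 0.19 ± 0.18 (SE, limma adjusted p = 0.622), and Cox4i2, a lung form of subunit IV, by -0.03 ± 0.20 (0.96).

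Of complex IV 15 of 17 genes were tested, 1 rose, 0 fell and 14 did not pass, with a median difference of 0.10. Among the widely used subunits, Cox4i1 (0.10 ± 0.07, SE), Cox6a1 (0.10 ± 0.08) and Cox6b1 (0.02 ± 0.07) had 95% intervals reaching no higher than 0.27. Cox8a read log2 9.26, 9.08 and 9.59 in knockout and 9.05, 9.02 and 9.05 in wild type, without overlap, and did not pass (0.27 ± 0.15, limma adjusted p = 0.362). Its tested probe sets differed in size, since the other one gave 0.02. Cox7c was the member with the largest negative difference. Its brightest probe set read 6.68, 6.47 and 6.05 in knockout and 6.87, 6.82 and 6.70 in wild type, with all knockout arrays below the wild-type arrays, and it did not pass (-0.40 ± 0.20, limma adjusted p = 0.29). That probe set was dim, with a mean log2 level of 6.60, against 12.75 for Cox4i1, 13.28 for Cox6a1 and 13.12 for Cox6b1. The other Cox7c probe set averaged 2.62 and was not tested. Ndufa4, named as a complex I gene but known as a subunit of complex IV, differed by -0.04 ± 0.19 (0.942), with knockout replicate 1 at 11.27 above the other 5 arrays, which read 10.48 to 10.93. Ndufa4l2, its hypoxia-induced relative, lay near the filter level (4.34 ± 0.19 in knockout and 4.39 ± 0.46 in wild type, SD, n = 3 each).

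**Figure D4:**
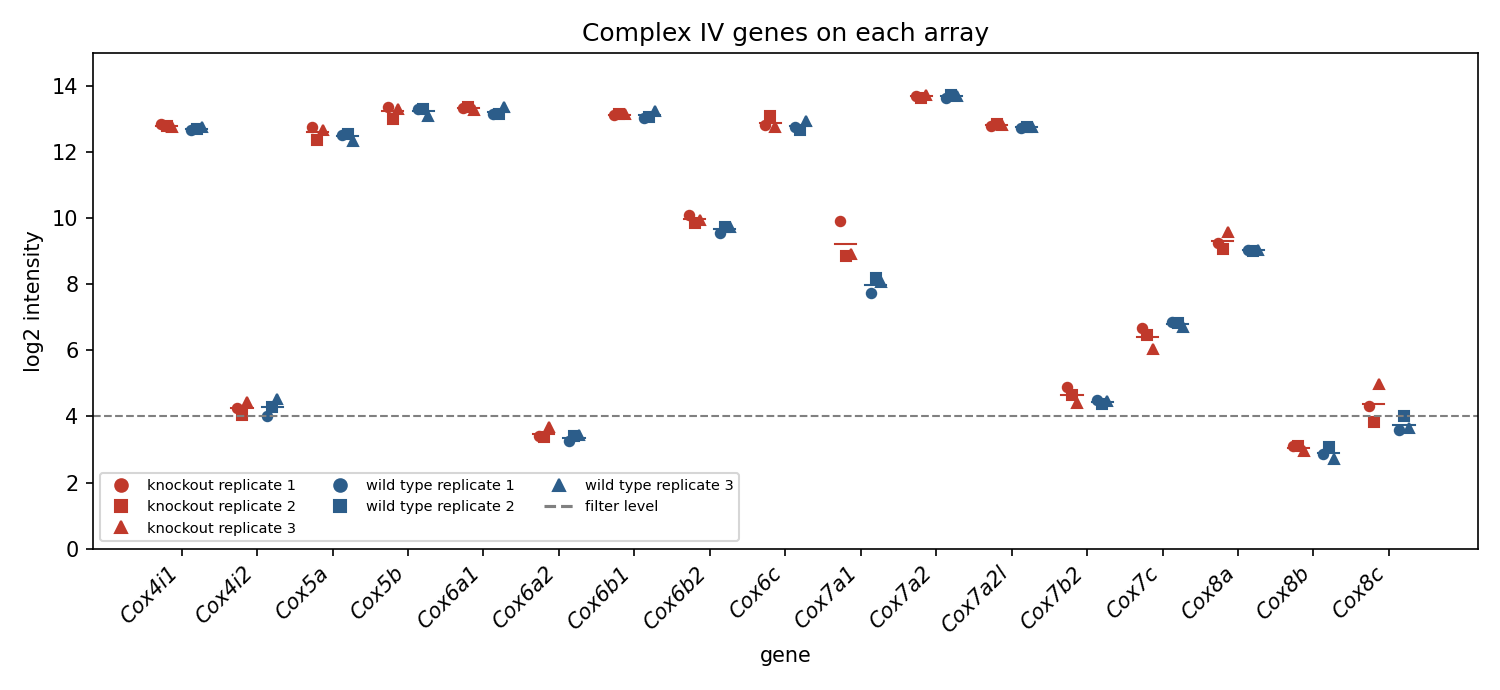
Log2 intensity (y axis) of the 17 complex IV genes on each array, with knockout arrays left and wild-type arrays right for each gene. Symbols are single arrays, short bars group means, and the dashed line the filter level of 4. Cox7a1 shows knockout arrays at 8.87 to 9.92, all above wild type at 7.74 to 8.18, while Cox6a2 and Cox8b lie under the line on every array.

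Complex I, the NADH dehydrogenase, had 34 of 35 genes tested, with 0 rising, 0 falling and a median difference of 0.05. The largest positive differences were those of Ndufs1, Ndufv1 and Ndufv2, subunits of the arm that binds NADH, followed by Ndufb9 (0.20). Other subunits of that arm were near 0, with Ndufv3 at 0.03 and Ndufs4 at 0.04. Ndufs1, which carries iron-sulfur clusters in that arm, read log2 10.78, 10.57 and 10.61 in knockout and 10.40, 10.48 and 10.38 in wild type. Its groups did not overlap, and it did not pass (0.23 ± 0.11, SE, limma adjusted p = 0.247). Ndufv1, which binds NADH and the flavin, varied more among arrays, at 11.87, 11.22 and 12.21 in knockout and 11.86, 11.48 and 11.27 in wild type. Its difference of 0.22 ± 0.23 lay within that spread, and its other tested probe sets gave 0.37 and 0.28, also without a call. Ndufv2, their partner in the same arm, differed by 0.22 ± 0.08 (limma adjusted p = 0.149) without overlap of the groups. It passed only with median centring, and the difference was -0.10 when probe sets that can match several transcripts were left out.

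At the other end, Ndufa1, an X-linked accessory subunit of the membrane arm, read log2 11.85, 12.03 and 12.40 in knockout and 12.27, 12.41 and 12.28 in wild type. Knockout replicate 1 was the lowest of these arrays, and the groups overlapped (-0.23 ± 0.13, SE, limma adjusted p = 0.359). Ndufs5 differed by -0.12 ± 0.17 (0.736). The brightest members of complex I had small differences. Ndufa13, also known as GRIM-19, averaged 13.55 ± 0.11 in knockout and 13.54 ± 0.01 in wild type, and Ndufb11, an X-linked subunit, 13.35 ± 0.07 in knockout and 13.38 ± 0.05 in wild type (SD, n = 3 each). In complex I 7 genes had all knockout arrays above all wild-type arrays and 0 had them below, while over all tested genes the shares were 12.3% and 11.4%. Over all complexes these counts were 17 (21.8%) and 1 (1.28%) of 78.

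Complex II, which is both an enzyme of the citric acid cycle and an entry point for electrons, was measured in full, and all 4 genes had small positive differences without a call. Sdha, the flavoprotein, read log2 11.89, 11.95 and 11.84 in knockout and 11.79, 11.78 and 11.73 in wild type. Sdhb, the iron-sulfur subunit, read 11.53, 11.33 and 11.49 in knockout and 11.27, 11.32 and 11.19 in wild type. Both genes kept their groups apart, by 0.13 ± 0.08 and 0.19 ± 0.10 (SE, limma adjusted p = 0.409 and 0.289). Sdhc, a membrane anchor, read 10.67, 10.31 and 10.69 in knockout and 10.23, 10.41 and 10.20 in wild type, so that knockout replicate 2 lay among the wild-type arrays (0.28 ± 0.13, limma adjusted p = 0.267). Its other tested probe set, dimmer with a mean log2 level of 7.28, gave 0.46 ± 0.19 without overlap of the groups (limma adjusted p = 0.211). Sdhd, the other anchor, differed by 0.15 ± 0.10 (0.45). Through the brightest probe sets the median of the 4 was 0.17, and the intervals of all 4 lay within 1.5-fold.

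In complex III, 8 of 8 genes were tested, with 0 rising, 0 falling and a median difference of 0.15. Uqcrc2, a core protein, came closest to a call in the whole chain after Cox7a1. It read log2 12.73, 12.78 and 12.64 in knockout and 12.41, 12.47 and 12.52 in wild type, and its groups did not overlap. The difference was 0.25 ± 0.07 (SE, 95% interval 0.08 to 0.41) with a limma adjusted p of 0.082, which passed only with median centring (0.38, 0.0173). The other tested probe set of Uqcrc2 gave 0.17 ± 0.11 with overlapping groups (limma adjusted p = 0.404). Uqcrc1, the other core protein, read 11.30, 10.97 and 11.69 in knockout and 11.15, 10.90 and 10.90 in wild type, with overlapping groups (0.34 ± 0.17, limma adjusted p = 0.29). Uqcr11, a small subunit, differed by 0.22 ± 0.11 (0.305). Uqcrb, a ubiquinone-binding subunit, differed by 0.09 ± 0.11, and the small subunits Uqcr10 and Uqcrh by -0.05 ± 0.12 and -0.09 ± 0.10, signs that turned on leaving out knockout replicate 2.

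Complex V had 17 of 17 genes tested, with 0 rising, 0 falling and a median difference of 0.07, and the intervals of all 17 lay within 1.5-fold. Atp5b, the catalytic beta subunit, read log2 12.39, 12.29 and 12.36 in knockout and 12.20, 12.15 and 12.21 in wild type. It was the only gene of this complex whose groups did not overlap, and its difference of 0.16 ± 0.07 (SE) did not pass (limma adjusted p = 0.245). Atp5a1, the alpha subunit, averaged 13.37 ± 0.03 in knockout and 13.34 ± 0.03 in wild type (SD, n = 3 each), a difference of 0.03 with an interval of -0.10 to 0.16. Atp5l, the g subunit of the membrane part, differed by 0.14 ± 0.14, and Atp5h, the d subunit of the peripheral stalk, by -0.02 ± 0.07. The small subunits Atp5md and Atp5mpl gave -0.05 ± 0.19 and -0.05 ± 0.10, and Atp5mpl and Atp5h turned positive with median centring.

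The members varied together from array to array. On knockout replicate 2, 52 of the 78 members (66.7%) had their lowest knockout value, against 34.5% of all tested genes. Measured from each gene's mean over the 6 arrays, the median deviation of the members was 0.08, -0.06 and 0.09 on the knockout arrays, against -0.06, -0.01 and -0.06 on the wild-type arrays. In every complex the lowest knockout median was that of knockout replicate 2. It was -0.07, -0.16 and -0.07 in complexes I, III and V. In complex II the medians of knockout replicates 1 to 3 were 0.12, 0.05 and 0.07, and in complex IV 0.08, 0.02 and 0.05. The median SD of a member was 0.15 among knockout arrays and 0.08 among wild-type arrays, and that of all tested genes 0.20 among knockout arrays and 0.13 among wild-type arrays. As a measure of RNA integrity, the 3' probe set of Gapdh exceeded the 5' one by 1.13, 1.17 and 1.52 log2 units on the knockout arrays, against 1.30, 0.99 and 0.99 on the wild-type arrays. The same measure for Actb was 2.45, 2.75 and 2.68 on the knockout arrays, against 2.74, 2.42 and 2.28 on the wild-type arrays. The part of RNA integrity in these array differences was not tested.

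**Figure D5:**
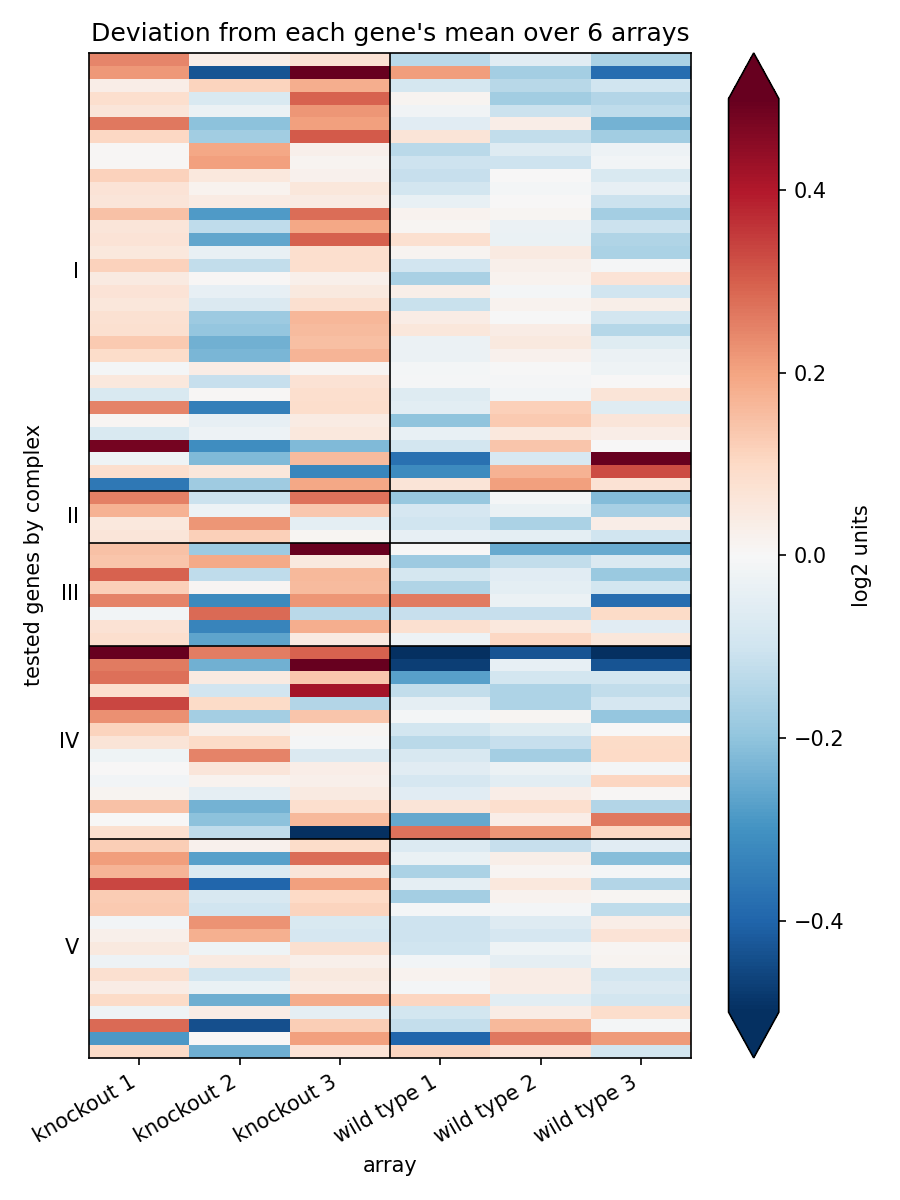
Deviation of each of the 78 tested genes from its own mean over the 6 arrays, in log2 units (colour, red above and blue below the mean), with knockout arrays left and wild-type arrays right and genes ordered by complex and by difference. The knockout 2 column is blue for many genes of complexes I, III and V that are red on knockout 1 and knockout 3.

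Different probe sets of a gene often disagreed in sign at this small scale. Of 43 members with several tested probe sets, 26 had the same sign in all and 17 did not, and the largest gap between probe sets of a gene was 0.63 log2 units. Of 143 tested probe sets 1 rose, that of Cox7a1, and 0 fell. Among the brightest tested probe sets 50 of 78 were of a kind that can match several transcripts, which includes alternative transcripts of a gene and, for some, related sequences. Untested members were Cox6a2, Cox8b and Ndufb4, whose only probe set with a single symbol lay at log2 1.63 to 1.76. Its brighter probe sets name Ndufb4 together with Ndufb4b and Ndufb4c and gave differences of 0.09 and 0.21 without a call. Probe sets shared by Ndufs6 and Ndufs6b (0.17 ± 0.11, SE) and by Ndufa11 and Ndufa11b (-0.08 ± 0.15) did not pass either.

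Among 7 lists of other mitochondrial or energy genes with more than 1 tested gene, 6 had 0 calls, where 3.55% of all tested genes were called, so that lists of this size have few calls in any case. An unadjusted p under 0.05 was reached by 26.7% of the citric acid cycle genes, 25.0% of the glycolysis genes and 33.3% of the carriers, beside 6.41% of the respiratory chain genes and 17.4% of all tested genes. Of 43 tested assembly factors 0 passed (median difference 0.09), with Nubpl, which inserts iron-sulfur clusters into complex I, at 0.39 ± 0.14 (SE, limma adjusted p = 0.128). Among 17 partners, including cytochrome c and the enzymes of ubiquinone synthesis, 0 passed (median 0.12), and Cyc1, the cytochrome c1 of complex III, gave 0.22 ± 0.09 (0.187). Of 18 genes of mitochondrial DNA upkeep and regulation 0 passed (median 0.03). Ppargc1a, the coactivator PGC-1alpha of mitochondrial biogenesis, read log2 5.78, 6.58 and 6.04 in knockout and 6.95, 6.62 and 7.08 in wild type. All its knockout arrays were below the wild-type arrays, and it did not pass (-0.75 ± 0.23, limma adjusted p = 0.0906). Of the mitochondrially encoded subunits 2 were named on the array and 1 was tested, ND5 of complex I, at 0.02 ± 0.07 (0.898).

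Of 15 citric acid cycle genes 0 passed (median 0.11), with Suclg1, a succinate-CoA ligase subunit, at 0.36 ± 0.11 (SE, limma adjusted p = 0.0896). Of 16 glycolysis genes 0 passed (median 0.09), with Pfkl, a phosphofructokinase, at 0.67 ± 0.19 (0.0694). Of 12 carriers and membrane proteins 0 passed (median 0.18), and 11 had positive differences (91.7%, against 53.4% of all tested genes). The smallest p in that list was that of its only negative member, Opa1, which shapes the inner membrane (-0.26 ± 0.09, limma adjusted p = 0.134). Of 76 mitochondrial ribosomal proteins, which make the mitochondrially encoded subunits, Mrps23 rose and 75 did not pass (median 0.11). The share that rose was 1.32%, beside 1.28% of all tested genes. Differences were positive for 77.6%, against 53.4% of all tested genes, a kind of share that depended on the processing for the respiratory chain genes. Mrps23 read log2 9.42, 9.55 and 9.47 in knockout and 9.03, 8.93 and 9.03 in wild type (0.48 ± 0.12, limma adjusted p = 0.0446). Of 42 cytoplasmic ribosomal proteins 0 passed (median 0.01, 61.9% positive), with Rpl39l at 0.49 ± 0.15 (0.0872).

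Levels of cell type markers of the ovary are given beside these values. The median difference of 11 tested germ cell markers was 0.19, and 0.09 without knockout replicate 1, with 7 positive and 4 negative. Their mean log2 level was 10.62, 9.90 and 9.82 on knockout replicates 1 to 3 and 9.40, 9.67 and 9.49 in wild type. Dppa3, with its large difference, weighs most in that mean, which was highest on knockout replicate 1. Of these markers Dppa3, a gene of early germ cells, rose (4.22 ± 0.76, SE, limma adjusted p = 0.00817) and 10 did not pass, and the summed intensity of the list was 17737 to 24502 in knockout, against 17320 to 21445 in wild type. Of 10 pregranulosa markers 0 passed (median 0.24, summed intensity 12102 to 13523 in knockout, against 11034 to 11428 in wild type), with Irx5 closest (0.72 ± 0.20, 0.06). The mean log2 level of the pregranulosa list was 9.24, 8.95 and 9.18 on knockout replicates 1 to 3. It was 8.95, 8.97 and 8.87 in wild type, so that list was also highest on knockout replicate 1. The part of germ cell and pregranulosa content in the Cox7a1 difference was not tested.

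The lists for stroma, endothelium, macrophages and erythroid cells had negative median differences, with 5 genes that fell, beside 2.27% of all tested genes. The macrophage median was -0.33, and -0.08 without knockout replicate 1, on which the mean log2 level of the list was 7.65, against 8.26 and 8.33 on the other knockout arrays and 8.28 to 8.60 in wild type. Of 9 stroma markers 0 passed (median -0.25, summed intensity 33552 to 36180 in knockout, against 38264 to 42722 in wild type), with Dcn at -0.35 ± 0.10 (SE, limma adjusted p = 0.0716). Of 7 tested endothelium markers Flt1 (-0.88 ± 0.19, 0.0184) and Tek (-0.51 ± 0.13, 0.0452) fell, with a summed intensity of 1970 to 2583 in knockout, against 2738 to 3088 in wild type. Of 12 macrophage markers Ptprc (-1.06 ± 0.25, 0.0357) and Mrc1 (-0.72 ± 0.17, 0.0358) fell, with a summed intensity of 7638 to 11682 in knockout, against 10467 to 12984 in wild type. Of 6 erythroid markers Slc4a1 fell (-1.44 ± 0.33, 0.0275), with a summed intensity of 7960 to 9678 in knockout, against 9233 to 10338 in wild type.

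Since Cox7a1 is known from heart and skeletal muscle, muscle markers were set beside it. Of 14 such genes 7 were tested and 0 passed, with a median difference of -0.08 that turned to 0.18 without knockout replicate 1, and the summed intensity of the 14 was 517 to 836 in knockout, against 539 to 630 in wild type. The muscle creatine kinase Ckm averaged log2 1.87 ± 0.12 in knockout and 1.77 ± 0.12 in wild type, skeletal actin Acta1 3.24 ± 0.35 in knockout and 3.42 ± 0.21 in wild type, and the muscle factor Myog 2.39 ± 0.22 in knockout and 2.28 ± 0.19 in wild type (SD, n = 3 each), all under the filter level. The 7 tested genes had 3 positive and 4 negative differences, from -0.34 to 0.78. Tnni1, the slow muscle troponin I, came closest to a call (0.78 ± 0.21, SE, limma adjusted p = 0.0552).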

How the data were processed

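Total RNA of 6 ovary samples was labelled with biotin and hybridised to Affymetrix arrays, per the labels' protocols. The authors deposited 1 linear intensity for each probe set and array, made with GCRMA (background adjustment by base composition, normalization and summary), per the submitters' processing notes, with no version or settings. They carry no detection calls, and the number of arrays limits the precision.

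Intensities were taken to log2, 64 control probe sets were left out, and 22040 of 45037 probe sets passed the filter (log2 of at least 4 on at least 3 of 6 arrays). Groups were compared over all of them with limma 3.58.1 in R 4.3.3 (lmFit, eBayes with an intensity trend, genotype the only term, 2-sided, Benjamini-Hochberg adjustment). Symbols came from the platform annotation, and all 81 members matched RefSeq (GRCm38.p6) by gene identifier. Of 16 gene lists, 4 genes matched through a synonym. 0 pairs of arrays held identical values. The steps were tested on simulated data.

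The members and lists were chosen with earlier results of these data known. Genes named are those past the threshold, the 2 largest differences each way and the 2 brightest genes of each complex, fixed isoform genes, the Sdh genes, and the leading genes of each list. Ndufv2, Ndufv3, Ndufs4, Ndufb9, Uqcr11, Cox7b2, Ndufb4, the genes with DMRT motif letters, and genes of muscle other than Tnni1 were named after their values were seen. Alternatives covered filters, eBayes settings, array weights, the replicate block, scaling, probe set choice and leaving out each array.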

Additional observations from a re-analysis of the deposited data

How the results depend on the processing

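Cox7a1 alone rose and 0 members fell in every setting tried except the following. With median centring 4 genes rose (Cox7a1, Uqcrc2, Ndufv2 and Atp5b), and the median difference of the members was 0.22, beside 0.16 for all genes, since centring adds the same amount to every gene. Leaving out each array in turn gave counts of 0 to 2 genes that rose, 0 without wild-type replicate 1 or 3 and 2 (with Uqcr11) without knockout replicate 2, and medians of 0.04 to 0.11. The Cox7a1 difference was 0.90 to 1.42 over those fits, and each of these fits has 1 array fewer. With median centring the differences of Atp5h (0.11), Atp5mpl (0.08), Ndufb11 (0.10), Uqcr10 (0.09) and Uqcrh (0.05) turned positive. Without knockout replicate 2 those of Atp5mpl (0.05), Uqcr10 (0.10) and Uqcrh (0.02) turned positive and that of Uqcrb (-0.03) negative, and without wild-type replicate 3 that of Ndufa4l2 (0.20) turned positive, all without a call. Over these fits the ranges were -0.11 to 0.05 for Atp5mpl, -0.15 to 0.10 for Uqcr10, -0.15 to 0.02 for Uqcrh, -0.03 to 0.18 for Uqcrb and -0.26 to 0.20 for Ndufa4l2. After removing probe sets able to match several transcripts Ndufv2 was read through another of its probe sets, which gave -0.10. Why the probe sets of this gene differ was not tested. These changes of sign are those of genes named in the text, and are listed where they exceeded the standard error; other members were followed only through the counts of positive differences. Replicate numbers were not used as pairs in the main fit. Same-numbered arrays had correlations of deviations of -0.165, -0.248 and -0.168, and differently numbered arrays -0.148 to 0.336. Deviations cancel within each group, so these values depend on one another and cannot decide whether arrays are paired. With the replicate block 1 gene rose, Cox7a1 (1.24, limma adjusted p = 0.0286), and 0 fell, while calls over all probe sets were 207 higher and 836 lower. They were 1325 higher and 1957 lower with no filter, 140 and 504 with the stricter filter (log2 of at least 6), and 159 to 422 higher and 645 to 1119 lower over the fits that left out 1 array.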
